A study of Mus musculus with 12 samples.

Results

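The carboxylesterase genes examined here are 10 named genes of mouse liver, Ces1c, Ces1d, Ces1e, Ces1f, Ces1g, Ces2a, Ces2c, Ces2e, Ces3a and Ces4a, of which 9 were measured among 22180 genes. A member was taken from the probe sets whose single annotated symbol was the member's own, and among these its probe set was chosen by its mean log2 signal, the highest over the arrays. Each of the 9 measured members had 1 such probe set, so the level decided nothing. Ces2c had no probe set of its own symbol and is not analysed here.

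The study asked how loss of Ahnak, the gene of a very large scaffold protein, alters gene expression in the liver under 2 diets. Liver RNA of male C57BL/6 mice was hybridised with 1 mouse to an array and 3 mice in each group. The 4 groups were wild-type (WT) mice on regular chow, WT mice on a high-fat diet (HFD) with 60% fat, Ahnak knockout (KO) mice on chow, and KO mice on the HFD, each kept in weight-matched diet groups for 8 weeks. The sources used here do not give the mice's ages, the kind of Ahnak allele or the part of the gene removed.

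Carboxylesterases are serine hydrolases, found mostly in the lumen of the endoplasmic reticulum, that cleave ester, amide and thioester bonds of drugs, toxins and lipids. In hepatocytes they activate ester prodrugs, and some of them hydrolyse stored triacylglycerol, the source of lipid for very-low-density lipoprotein (VLDL). The mouse family has grown by gene duplication, and several members are close copies of each other. In the RefSeq annotation of assembly GRCm38.p6 the family lay on chromosome 8 in a row of 9 genes, Ces1a to Ces1h and Ces5a, and a second row of 10 protein-coding genes of the Ces2, Ces3 and Ces4 subfamilies. The probes' own sequences are not in the sources used here, so how far a probe set also reads a close copy was not tested.

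The 3 arrays of WT mice on the HFD stood apart from the other 9 over all genes, with 30.0 to 32.3 on the first principal component (32.2% of the variance) against -18.5 to -3.95. The comparisons of KO against WT on the HFD and of HFD against chow in WT, and the interaction term given below, rest on those arrays and cannot be made without them. The mean log2 signal of 8 hepatocyte markers was 13.08 to 13.11 in WT on the HFD and 13.13 to 13.21 in the other groups. Marker lists of other tissues averaged 5.32 to 5.62 for kidney, 5.24 to 5.63 for exocrine pancreas and 5.87 to 6.13 for intestine, where Fabp2 alone read 11.20 to 11.94. Of their genes (5, 5 and 6 measured) 0 were called between KO and WT on the HFD, against 10.5% of all genes. The 6 Kupffer cell markers averaged 9.38 to 9.94 in WT on the HFD and 9.17 to 9.60 in the other groups. The 6 stellate cell markers averaged 8.95 to 9.08 in WT on the HFD and 8.77 to 8.95 in the others. In KO against WT on the HFD, Cps1 and Serpina1a (hepatocyte, 8 measured) and Arg1 (periportal, 6 measured) were called higher. Called lower were Rhbg (pericentral, 8 measured), Aldh1b1 (periportal), Lrat (stellate, 6 measured), Lyve1 (endothelial, 6 measured) and Car3 (fat cell list, 5 measured). Over all genes 3.89% were called higher and 6.62% lower, so a single call in so short a list cannot be told from that share. That limit does not cover the hepatocyte list, with 2 of 8 called higher, or the periportal list, with 1 higher and 1 lower of 6. Car3 alone read 12.09 to 14.05, and the other fat cell markers, Adipoq, Plin1, Lep and Retn, read 4.49 to 6.34. The 5 lymphocyte markers, which averaged 5.54 to 6.39, all had negative differences and 0 were called. The same was true of the 5 kidney markers. The part of these marker differences in the results was not tested. In whole liver, fewer cells of a type and less RNA per cell cannot be told apart.

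The stretch of 250 bases before the start site was held in the RefSeq table for 7 of the 10 members. The following 4 belong to members whose signals differed in unlike ways between the groups, as described below: Ces1g, at chr8:93337210-93337459 on the minus strand, Ces2a, at chr8:104733753-104734002, Ces2e, at chr8:104926010-104926259, and Ces4a, at chr8:105131550-105131799, the last 3 on the plus strand (GRCm38.p6). They are written 5′ to 3′, and capitals mark a motif match.
Ces1g: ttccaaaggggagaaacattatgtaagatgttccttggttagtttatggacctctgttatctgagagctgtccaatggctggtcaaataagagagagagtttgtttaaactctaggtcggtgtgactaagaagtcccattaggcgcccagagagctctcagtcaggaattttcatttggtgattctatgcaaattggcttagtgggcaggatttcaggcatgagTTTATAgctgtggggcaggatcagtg
Ces2a: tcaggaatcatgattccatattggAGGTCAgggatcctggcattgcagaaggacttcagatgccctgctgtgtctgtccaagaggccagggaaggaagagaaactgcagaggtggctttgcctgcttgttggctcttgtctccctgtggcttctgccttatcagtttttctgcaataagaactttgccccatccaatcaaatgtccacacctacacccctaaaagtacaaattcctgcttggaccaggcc
Ces2e: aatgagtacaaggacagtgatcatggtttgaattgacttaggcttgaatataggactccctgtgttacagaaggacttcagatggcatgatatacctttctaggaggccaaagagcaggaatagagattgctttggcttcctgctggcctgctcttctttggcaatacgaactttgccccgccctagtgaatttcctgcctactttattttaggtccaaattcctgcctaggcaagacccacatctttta
Ces4a: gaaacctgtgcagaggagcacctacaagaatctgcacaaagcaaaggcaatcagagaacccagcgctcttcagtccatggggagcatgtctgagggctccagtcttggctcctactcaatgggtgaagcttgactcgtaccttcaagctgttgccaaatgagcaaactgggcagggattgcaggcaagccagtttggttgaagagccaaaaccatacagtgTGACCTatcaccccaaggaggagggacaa
A nuclear receptor half-site, AGGTCA, stood in Ces2a, 226 to 221 bases before the start, and in Ces4a as its reverse complement TGACCT, 29 to 24 bases before it. A TATA box, TATAAA, stood in Ces1g as TTTATA, 26 to 21 bases before the start. Both strands were searched, and no matches overlapped in these windows. Of 7 member windows 2 held the half-site and 1 the TATA box, against 14% and 12.4% of all 32851 promoter windows of the same length. The STAT5 site TTCNNNGAA (7.02% of all windows), the antioxidant response core TGACNNNGC (10.2%) and the extended HNF4 site CAAAGTCCA (0.384%) were found in 0 of the 7. No match says only that these letters are not in this window.

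Between Ces1c and its neighbour Ces1b the windows shared an identical run of 58 bases, the longest among the windows of the family. The next longest, 17 bases, joined Ces2a and Ces2e. The run is shown in capitals with 20 bases on each side, because it is the closest match found between 2 genes of the family. It lay at chr8:93080036-93080133 for Ces1b and chr8:93131390-93131487 for Ces1c, flanks included, both on the minus strand (GRCm38.p6).
Ces1b: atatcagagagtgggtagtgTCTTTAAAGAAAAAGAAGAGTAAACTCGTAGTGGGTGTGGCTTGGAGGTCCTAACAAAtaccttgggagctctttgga
Ces1c: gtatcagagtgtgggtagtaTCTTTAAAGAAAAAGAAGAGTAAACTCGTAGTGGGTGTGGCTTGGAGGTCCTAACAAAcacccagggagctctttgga

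On the HFD, KO livers had lower signals than WT livers for most of the Ces1 members and for Ces2e, a higher signal for Ces4a, and no called difference for Ces1c, Ces2a and Ces3a. A gene is called changed where its limma p, adjusted by the Benjamini-Hochberg method over all 22180 genes, is under 0.05. Of the 9 members 5 fell and 1 rose, against 10.5% of all genes called in this comparison (6.62% lower and 3.89% higher). The members' median log2 difference was -0.81, against 0.0011 for all genes. KO and WT arrays did not overlap for 8 of the 9, with 6 lower and 2 higher (28.6% of all genes did not overlap, 15.6% lower and 13% higher). The list was drawn up with earlier results of these data known, so these counts describe the members and do not set them apart.

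**Figure D1:**
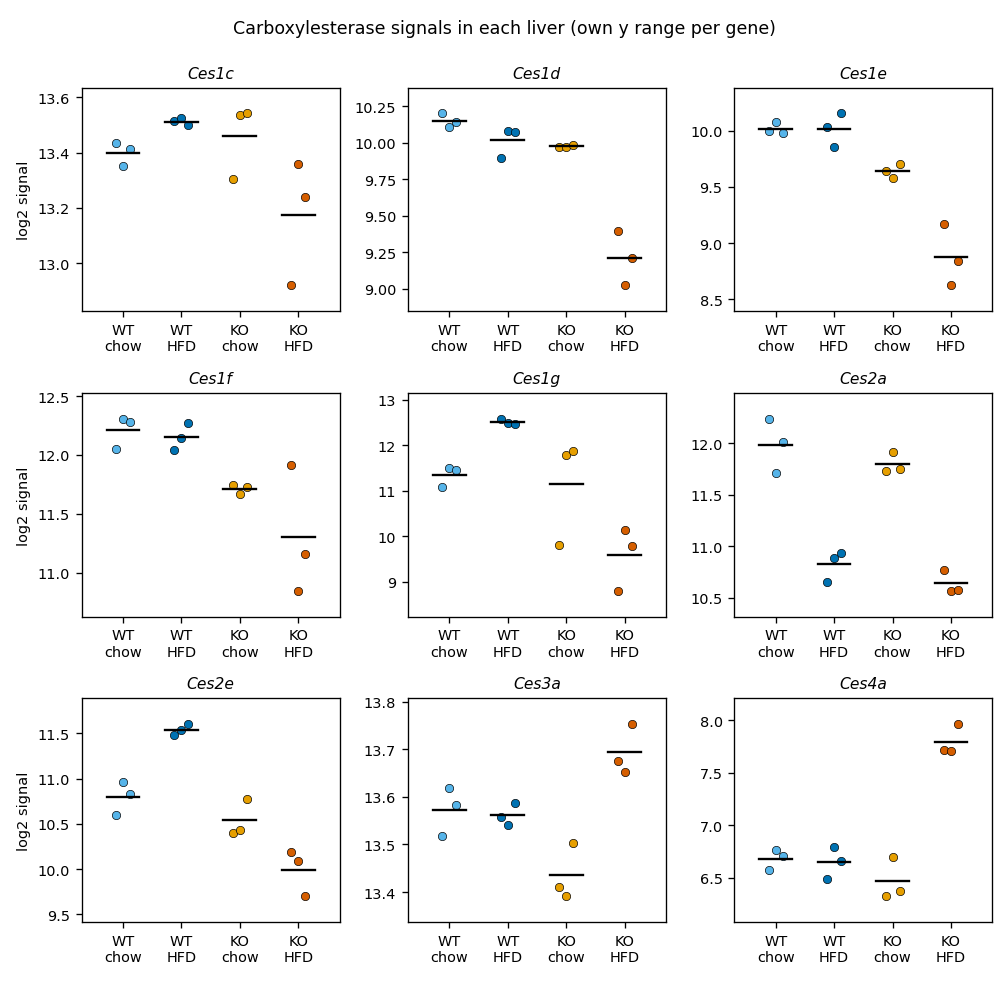
Log2 signal of the 9 measured carboxylesterase members in each group, 1 point per array (3 mice per group), with a bar at the group mean and a y axis of its own range in each panel. Ces1c, Ces1d, Ces1e, Ces1f, Ces1g, Ces2a and Ces2e were lowest on average in KO mice on the HFD, and Ces3a and Ces4a were highest there. Ces2a was low on the HFD in both genotypes.

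Ces1g (probe set 17511748), an esterase of the endoplasmic reticulum whose loss in mice is known to cause fatty liver, showed the largest difference of any member between KO and WT on the HFD. Its log2 signals were 12.58, 12.49 and 12.47 in WT and 8.80, 10.14 and 9.80 in KO, both on the HFD. On chow they were 11.09, 11.51 and 11.46 in WT and 9.81, 11.78 and 11.87 in KO. The WT arrays on the HFD lay above all others, the KO arrays on the HFD spread widely below them, and 1 KO array on chow (KO chow 1) lay far under its group. The KO minus WT difference on the HFD was -2.94 ± 0.46 (SE, log2; 95% interval -3.94 to -1.93; adjusted p = 0.00186), a 7.65-fold fall. The call held whichever of the 12 arrays was left out.

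Ces1d (probe set 17511693) is the triacylglycerol hydrolase of the liver, which releases fatty acids from stored lipid for VLDL. Its signals were 9.90, 10.08 and 10.07 in WT on the HFD and 9.40, 9.02 and 9.21 in KO on the HFD, and on chow 10.20, 10.11 and 10.14 in WT and 9.97, 9.97 and 9.98 in KO. All 3 KO arrays on the HFD lay below the other 9. Ces1d fell by 0.81 ± 0.10 on the log2 scale in KO on the HFD (1.75-fold, adjusted p = 0.000385).

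Ces1e (probe set 17511714), known as egasyn, retains β-glucuronidase in the endoplasmic reticulum. Its signals were 10.04, 9.86 and 10.16 in WT on the HFD and 9.17, 8.62 and 8.84 in KO on the HFD, and on chow 9.9996, 10.08 and 9.98 in WT and 9.64, 9.58 and 9.71 in KO. The groups stepped down without overlap from WT on either diet to KO on chow and then to KO on the HFD. Ces1e fell by 1.14 ± 0.13 on the log2 scale in KO on the HFD (2.21-fold, adjusted p = 0.000196). The calls of Ces1d and Ces1e on the HFD also held without any 1 array.

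Ces1f (probe set 17511731), a relative of Ces1d also known as a triacylglycerol hydrolase, fell by 0.85 ± 0.20 on the log2 scale (1.80-fold, adjusted p = 0.0206). Its signals on the HFD were 12.04, 12.14 and 12.27 in WT and 11.92, 10.84 and 11.15 in KO, and on chow 12.05, 12.31 and 12.28 in WT and 11.75, 11.66 and 11.72 in KO. KO HFD 1 lay close under the WT arrays and the other 2 KO arrays on the HFD far below. Ces1f no longer passed when WT HFD 2 (adjusted p = 0.0563), WT HFD 3 (0.075), KO HFD 2 (0.0705) or KO HFD 3 (0.0704) was removed, nor with a fit on only the 6 HFD arrays (0.0742) or on every probe set (0.0511).

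Ces1c (probe set 17511677) encodes an esterase secreted into blood plasma. Its signals on the HFD were 13.51, 13.52 and 13.50 in WT and 12.92, 13.36 and 13.24 in KO, and on chow 13.43, 13.35 and 13.41 in WT and 13.30, 13.54 and 13.54 in KO. On the HFD every KO array was below every WT array, but the KO minus WT difference of -0.34 ± 0.11 (SE, log2) did not pass (adjusted p = 0.078). It passed with trend and robust settings (adjusted p = 0.0242), among genes above the median signal (0.0331) or without KO HFD 2 (0.0446). The other members of the first gene row were Ces1a, Ces1b, Ces1h and Ces5a, of which Ces1b was called, as given below.

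Ces2 enzymes prefer esters with a small acyl group and a large alcohol group, and 2 of the measured members belong to this subfamily. Ces2e (probe set 17504541) read 11.48, 11.53 and 11.60 in WT and 10.19, 10.09 and 9.70 in KO on the HFD, and 10.60, 10.96 and 10.83 in WT and 10.40, 10.43 and 10.78 in KO on chow. WT mice on the HFD were above both chow groups and KO mice on the HFD below both, with no overlap. Ces2e fell by 1.55 ± 0.14 on the log2 scale in KO on the HFD (2.92-fold, adjusted p = 6.27e-05), the smallest adjusted p of any member, and the call held without any 1 array.

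Ces2a (probe set 17504477) read 10.65, 10.89 and 10.93 in WT and 10.77, 10.57 and 10.58 in KO on the HFD, against 12.24, 11.71 and 12.01 in WT and 11.73, 11.91 and 11.75 in KO on chow. The 6 HFD arrays lay below the 6 chow arrays, and within each diet the genotypes overlapped. The KO minus WT difference on the HFD was -0.18 ± 0.13 (SE, log2; 95% interval -0.47 to 0.10; adjusted p = 0.439).

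Ces3a and Ces4a lie at the far end of the second gene row. Ces4a (probe set 17504632) read 6.49, 6.79 and 6.66 in WT and 7.72, 7.70 and 7.96 in KO on the HFD, and 6.58, 6.77 and 6.71 in WT and 6.32, 6.70 and 6.37 in KO on chow. Only the 3 KO arrays on the HFD stood above the rest, which overlapped. The rest read 6.32 to 6.79, within the 3.59 to 6.92 of 7 other carboxylesterase genes called in no comparison, given below. Ces4a rose by 1.15 ± 0.12 on the log2 scale (2.22-fold, adjusted p = 0.000159), a call that held without any 1 array. Ces3a (probe set 17504601), an abundant liver esterase, read 13.56, 13.54 and 13.59 in WT and 13.68, 13.65 and 13.75 in KO on the HFD, and 13.52, 13.62 and 13.58 in WT and 13.41, 13.39 and 13.50 in KO on chow. Its KO arrays lay above the WT arrays on the HFD and below them on chow. Neither difference passed, with 0.13 ± 0.07 (SE, log2) on the HFD (adjusted p = 0.315) and -0.14 ± 0.07 on chow (adjusted p = 0.749).

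**Figure D2:**
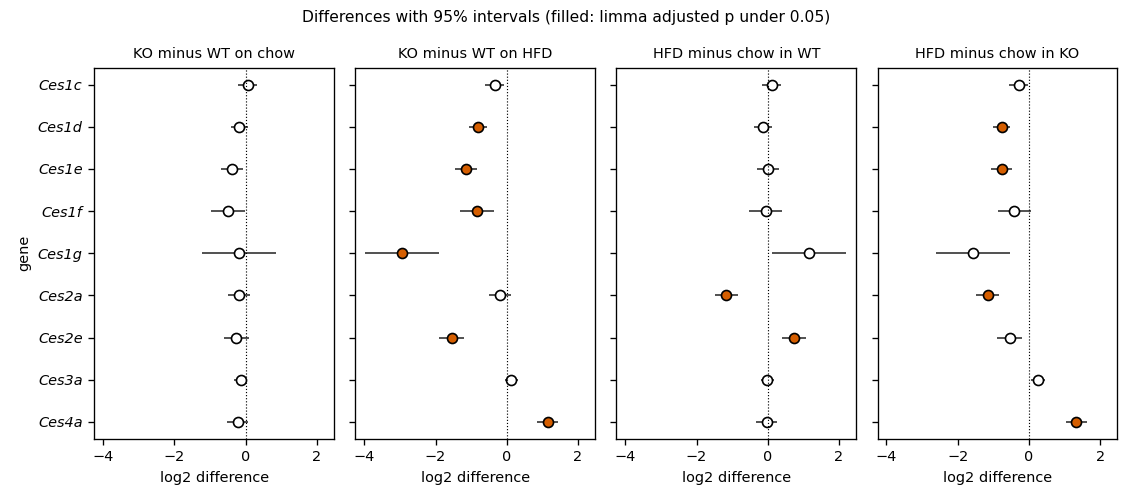
Log2 differences of the 9 members in 4 comparisons (KO minus WT on chow and on the HFD, HFD minus chow in WT and in KO), with 95% intervals of the limma fit; filled points passed an adjusted p of 0.05. No point is filled for KO minus WT on chow, and the lowest point is Ces1g for KO minus WT on the HFD at -2.94.

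On chow, none of the 9 members was called between KO and WT by limma, against 0.00902% of all genes, and 2 had an unadjusted p under 0.05 (7.02% of all genes). The members' median log2 difference was -0.20, against -0.0034 for all genes. Arrays did not overlap for Ces1d, Ces1e, Ces1f and Ces3a, each lower in KO, and 0 were higher (13.2% of all genes did not overlap, 7.29% lower and 5.95% higher). The 2 members with an unadjusted p under 0.05 were Ces1e, at -0.38 ± 0.13 (SE, log2; adjusted p = 0.565), and Ces1f, at -0.50 ± 0.20 (adjusted p = 0.656). Ces1d stood at -0.18 ± 0.10, Ces2a at -0.19 ± 0.13, Ces4a at -0.22 ± 0.12, Ces2e at -0.26 ± 0.14 and Ces1c at 0.06 ± 0.11 (adjusted p of 0.759 to 0.939). Ces1g stood at -0.20 ± 0.46 (adjusted p = 0.953), a sign set by KO chow 1, since without that array the difference was 0.47 (adjusted p = 0.843).

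In WT mice the HFD lowered Ces2a and raised Ces2e. These were the 2 of 9 members called, against 6.96% of all genes (2.94% lower and 4.02% higher). The median of the members was -0.01, against 0.0033 for all genes. Arrays of the diets did not overlap for 3 members that were higher on the HFD and 2 that were lower (26.4% of all genes, 14.2% higher and 12.2% lower). Ces2a fell by 1.16 ± 0.13 on the log2 scale (2.24-fold, adjusted p = 0.000384), and Ces2e rose by 0.74 ± 0.14 (1.67-fold, adjusted p = 0.00992). The Ces1g arrays on the HFD all lay above those on chow, by 1.16 ± 0.46 (95% interval 0.15 to 2.17), without passing (adjusted p = 0.174). Ces1g did pass without KO chow 1 (adjusted p = 0.0254) or in a fit on only the 6 WT arrays (0.00421). Ces1e, Ces1f, Ces3a and Ces4a differed by -0.06 to -0.0030 (adjusted p of 0.909 to 0.995), with Ces1c at 0.11 ± 0.11 and Ces1d at -0.14 ± 0.10.

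In KO mice the HFD again lowered Ces2a, and it also lowered Ces1d and Ces1e and raised Ces4a. Of 9 members 3 fell and 1 rose, against 0.243% of all genes called (0.158% lower and 0.0857% higher), with a median of -0.54 against 0.0037 for all genes. Arrays did not overlap for 2 members that were higher on the HFD and 4 that were lower (13.8% of all genes, 6.99% higher and 6.79% lower). Ces2a fell by 1.16 ± 0.13 on the log2 scale (adjusted p = 0.00235) and Ces1d by 0.77 ± 0.10 (adjusted p = 0.00471), while Ces4a rose by 1.33 ± 0.12 (2.51-fold, adjusted p = 5e-04). Ces1e fell by 0.77 ± 0.13 (adjusted p = 0.03). It missed the threshold without KO HFD 2 (adjusted p = 0.0875), KO HFD 3 (0.0912), KO chow 1 (0.0747), KO chow 2 (0.102) or KO chow 3 (0.137), and also without WT chow 3 (0.0504) or WT HFD 1 (0.0562), which are not arrays of this comparison. In a fit on only the 6 KO arrays the calls of Ces1d (0.0679) and Ces1e (0.186) were lost. With the 3 WT HFD arrays left out of the fit, Ces1d (adjusted p = 0.0208), Ces2a (0.0106) and Ces4a (0.00253) were called and Ces1e was not (0.0726).

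The remaining 5 members did not pass between HFD and chow in KO mice. Ces1g stood at -1.57 ± 0.46 (SE, log2; adjusted p = 0.297), and without KO chow 1 it fell by 2.25 and passed (adjusted p = 0.00975). Ces1f stood at -0.41 ± 0.20 (adjusted p = 0.634), and without KO HFD 1 it fell by 0.71 and passed (adjusted p = 0.0347). Ces2e at -0.54 ± 0.14 (adjusted p = 0.232) and Ces3a at 0.26 ± 0.07 (adjusted p = 0.277) did not overlap between diets, whereas Ces1c at -0.29 ± 0.11 (adjusted p = 0.503) did. Ces3a passed with trend and robust settings (adjusted p = 0.0179). The comparisons share arrays with each other, so their values for a member are not independent.

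**Figure D3:**
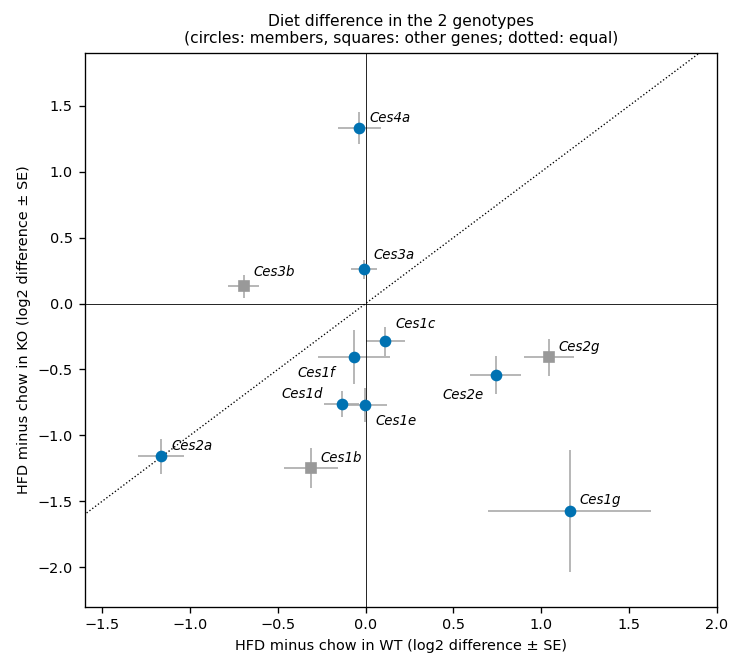
HFD minus chow log2 difference in WT (x axis) against that in KO (y axis) with standard errors, for the 9 members (circles) and Ces1b, Ces2g and Ces3b (squares); the dotted line marks equal differences. Ces2a lies on the line at -1.16 in both genotypes, Ces1g, Ces2e and Ces2g lie far below it, and Ces4a far above.

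The difference between the genotype effects on HFD and on chow was tested by the interaction term, the KO minus WT difference on the HFD minus that on chow. Of 9 members 4 were called with a negative and 1 with a positive term, against 3.53% of all genes (2.1% negative and 1.43% positive). For Ces2e it was -1.28 ± 0.20 (SE, log2; adjusted p = 0.00597) and for Ces4a 1.37 ± 0.17 (adjusted p = 0.00133), and both calls held without any 1 array. Ces1g (-2.74 ± 0.66, adjusted p = 0.0413), Ces1d (-0.63 ± 0.14, adjusted p = 0.0294) and Ces1e (-0.77 ± 0.18, adjusted p = 0.0378) were called less firmly. With single arrays removed, Ces1d kept its call in 3 of 12 fits and Ces1e and Ces1g in 2 each, with adjusted p values of up to 0.0778, 0.0932 and 0.0989. For Ces2a the term was 0.0041 ± 0.19, with a 95% interval of -0.40 to 0.41. Ces1c (-0.40 ± 0.16, adjusted p = 0.207), Ces1f (-0.34 ± 0.29, adjusted p = 0.607) and Ces3a (0.27 ± 0.10, adjusted p = 0.2) did not pass.

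The other 10 carboxylesterase genes were all measured, and 3 of them, Ces1b, Ces2g and Ces3b, were called in at least 1 comparison. In KO against WT on the HFD 1 rose and 2 fell (10.5% of all genes called). With the HFD 1 rose and 1 fell in WT (6.96% of all genes), and 0 rose and 1 fell in KO (0.243%). The interaction term was called positive for 1 and negative for 2 (3.53%), and on chow 0 were called (0.00902%). The other 7, Ces1a, Ces1h, Ces2b, Ces2d-ps, Ces2f, Ces2h and Ces5a, gave signals of 3.59 to 6.92 and were called in none of the 5 comparisons. With WT chow 1 removed, 1 of these, Ces2h, passed for HFD against chow in WT. Xist, which male cells do not express, read 4.21 to 4.76. Ces2g, of the same subfamily as Ces2e, read 10.16, 10.21 and 10.15 in WT and 8.88, 9.22 and 8.65 in KO on the HFD, and 9.04, 9.35 and 9.004 in WT and 9.17, 9.32 and 9.48 in KO on chow. The WT arrays on the HFD stood alone above the rest. Ces2g rose by 1.04 ± 0.14 on the log2 scale with the HFD in WT (adjusted p = 0.00122) and fell by 1.26 ± 0.14 in KO against WT on the HFD (adjusted p = 0.000223).

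Ces3b, a liver esterase next to Ces3a, read 11.20, 11.28 and 11.28 in WT on the HFD, with 12.25, 12.18 and 12.03 in KO on the HFD, 12.08, 11.92 and 11.85 in WT on chow and 12.03, 12.06 and 11.99 in KO on chow. Here the WT arrays on the HFD stood alone below the rest. Ces3b fell by 0.69 ± 0.09 on the log2 scale with the HFD in WT (adjusted p = 0.000748) and rose by 0.90 ± 0.09 in KO against WT on the HFD (adjusted p = 8.07e-05). In KO mice its HFD minus chow difference was 0.13 ± 0.09 (adjusted p = 0.733).

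Ces1b, the neighbour of Ces1c, read 9.50, 9.40 and 9.33 in WT and 8.56, 8.93 and 8.50 in KO on the HFD, and 9.83, 9.62 and 9.73 in WT and 9.55, 10.04 and 10.15 in KO on chow. KO mice on the HFD were below every other array. Ces1b fell by 0.75 ± 0.15 on the log2 scale in KO against WT on the HFD (adjusted p = 0.00855) and by 1.25 ± 0.15 with the HFD in KO (adjusted p = 0.0037), where it missed the threshold in a fit on only the 6 KO arrays (0.0679). The corresponding Ces1c differences, -0.34 ± 0.11 and -0.29 ± 0.11 (SE, log2), did not pass. The difference between Ces1b and Ces1c was not tested.

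**Figure D4:**
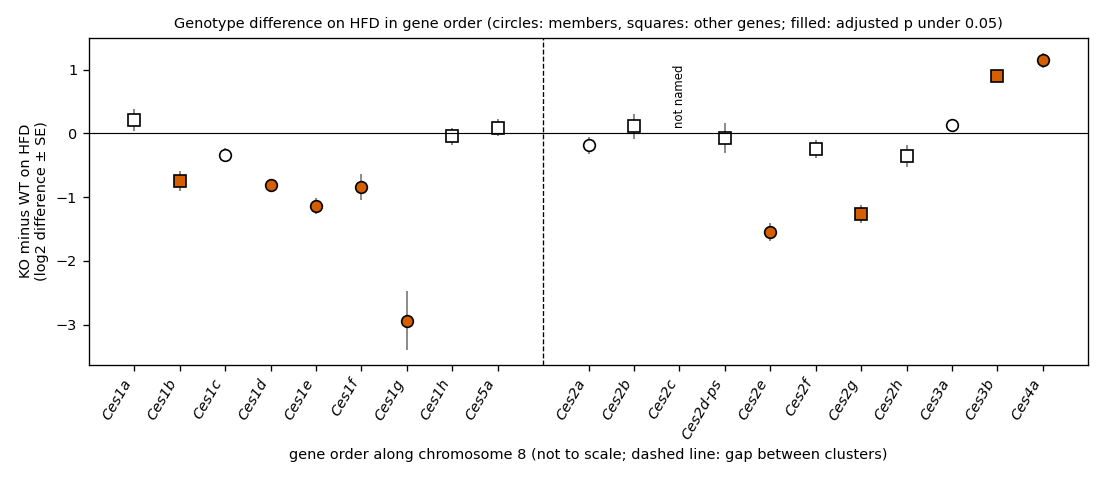
KO minus WT log2 difference on the HFD for the carboxylesterase genes in their order along chromosome 8, with standard errors, in the 2 gene rows of the annotation; Ces2c had no probe set of its own. Called falls are seen in both rows (Ces1b, Ces1d, Ces1e, Ces1f and Ces1g in the first, Ces2e and Ces2g in the second), and the called rises, Ces3b and Ces4a, lie at the end of the second row.

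The order of the 4 group means was not the same for all members. Ces1d, Ces1e, Ces1f, Ces1g and Ces2e were lowest in KO on the HFD. For Ces1d, Ces1e and Ces2e that group did not overlap with the next, and for Ces1f and Ces1g it overlapped with KO on chow. Ces1c was also lowest there, but each pair of neighbouring groups overlapped. Ces2a, too, was lowest in KO on the HFD, where it overlapped with WT on the HFD. For Ces2a the only gap in the order lay between both HFD groups and both chow groups. For Ces4a the only gap lay between KO on the HFD, the highest group, and the other 3. For Ces3a KO on chow was lowest and KO on the HFD highest, with the overlapping WT groups between. Levels of different genes are not ranked against each other, since they come from different probes. Signals of the dim genes, Xist and the markers were given only as a rough guide to level.

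Patterns like those of the 5 members with the widest range of group means were sought among single-symbol genes outside the family, by Pearson's r over the 12 arrays, which share the 4 groups. The genes most like Ces1g were Pde12 (r = 0.962), Timm29 (0.931) and Rhoq (0.931), and those most like Ces2e were Galm (0.982), Lactb (0.974) and Ppp5c (0.971). Ces4a was followed most closely by Moxd1 (r = 0.951), Rnase2a (0.932) and Necab1 (0.924). Ces1e came closest to Maoa (0.957), Rnf5 (0.952) and Gsta4 (0.949), and Ces2a to Cbr1 (0.960), Ctsf (0.950) and Pir (0.946). These values are descriptions with no test.

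The receptors CAR and PXR and the factor NRF2 are known regulators of drug-metabolising genes, carboxylesterases among them. In KO against WT on the HFD, 6 of 12 measured CAR and PXR targets fell and 0 rose, with a median of -0.45, where 6.62% of all genes fell and 3.89% rose and their median was 0.0011. Cyp2b10, a cytochrome P450 gene used as a CAR marker, fell by 3.43 ± 0.47 on the log2 scale, and Cyp3a11, its counterpart for PXR, by 0.93 ± 0.15 (adjusted p of 0.000769 and 0.00183). Of 9 NRF2 targets 5 fell and 0 rose, with a median of -0.57, among them Gsta3, a glutathione transferase gene, by 1.38 ± 0.13 (adjusted p = 7.01e-05) and the quinone reductase gene Nqo1 by 1.02 ± 0.14 (adjusted p = 0.000672). These falls are measured against WT on the HFD, the highest group for Cyp2b10, Gsta3 and Nqo1. Cyp2b10 averaged 8.36 there, 5.78 in WT and 6.03 in KO on chow, and 4.94 in KO on the HFD. Gsta3 averaged 12.09 there and 10.70 to 11.46 in the other groups, and Nqo1 7.94 and 6.92 to 7.69. Cyp3a11 averaged 10.46 in WT and 9.52 in KO on the HFD, both below WT (11.56) and KO (11.57) on chow. The genes of CAR (Nr1i3, 0.09 ± 0.22), PXR (Nr1i2, -0.13 ± 0.12) and NRF2 (Nfe2l2, adjusted p = 0.31) did not pass. Of 10 receptor and factor genes 1 fell, a share near that of all genes, with a median of -0.12. It was Nr0b2, a repressor of bile acid synthesis, which fell by 0.95 ± 0.27 on the log2 scale (adjusted p = 0.0471), and it kept that call in only 2 of 12 fits with 1 array left out (adjusted p of up to 0.154).

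Other hydrolases and lipid genes went in both directions in KO against WT on the HFD. Of 13 measured hydrolases of esters, amides and epoxides 5 rose and 2 fell, with a median of -0.11, against 3.89% and 6.62% of all genes. Nceh1, a cholesteryl ester hydrolase gene, rose by 1.03 ± 0.09 (adjusted p = 2.92e-05) and Acot1, an acyl-CoA thioesterase gene, by 1.06 ± 0.18 (adjusted p = 0.00308), while Aadac, arylacetamide deacetylase, fell by 0.36 ± 0.08 on the log2 scale (adjusted p = 0.0156). Aadac no longer passed with WT HFD 3 or KO HFD 2 removed, and its adjusted p reached 0.0656 over all alternatives. Of 11 neutral lipid hydrolases and their regulators 4 rose and 1 fell, with a median of 0.25, including the triglyceride lipase gene Pnpla2, which rose by 0.75 ± 0.14 (adjusted p = 0.00405). The 1 that fell was Lpl, lipoprotein lipase, by 0.90 ± 0.25 on the log2 scale (adjusted p = 0.0411), which kept its call in 4 of 12 fits with single arrays removed (adjusted p of up to 0.138). With the mean of all its probe sets the Lpl difference was -0.58 and did not pass (adjusted p = 0.101). Its call was also lost with a replicate block (0.0561), trend and robust settings (0.0503), array weights (0.0522) or every probe set (0.0891). Of 8 genes of VLDL assembly 1 rose, Mttp, which loads lipid onto apolipoprotein B, by 0.44 ± 0.09 (adjusted p = 0.0106), with a list median of -0.06. That share is near the 10.5% of all genes called, and Mttp missed the threshold in a fit on only the 6 HFD arrays (adjusted p = 0.0503). The rises of Nceh1, Acot1, Pnpla2 and Mttp are measured against WT on the HFD, the lowest of the 4 groups for each. Nceh1 averaged 9.69 there and 10.54 to 10.72 in the other groups, Pnpla2 10.44 and 11.01 to 11.20, and Mttp 11.50 and 11.83 to 11.94. Acot1 averaged 9.06 in WT and 10.12 in KO on the HFD, both below WT (10.96) and KO (10.60) on chow.

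In the other comparisons these lists moved as follows. On chow 0 members of any of these 6 lists were called between KO and WT by limma, against 0.00902% of all genes. Their unadjusted limma p was under 0.05 for 4 of 13 other hydrolases, 2 of 11 neutral lipid hydrolases or regulators and 2 of 12 CAR and PXR targets. It was so for 1 of 9 NRF2 targets, 1 of 8 VLDL assembly genes and 0 of 10 receptors and factors, against 7.02% of all genes. With the HFD in WT, 1 CAR and PXR target rose and 1 fell, 2 NRF2 targets rose, 1 other hydrolase rose and 4 fell, 4 neutral lipid hydrolases or regulators fell, and 1 VLDL assembly gene fell, where 4.02% of all genes rose and 2.94% fell. A single call in a list of 8 to 13 genes is near that background. With the HFD in KO, 3 CAR and PXR targets and 2 NRF2 targets fell, and 0 members of the other 4 lists were called, against 0.243% of all genes. These lists, too, were drawn up with earlier results known.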

How the data were processed

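Liver RNA of 12 mice was measured on whole-transcript arrays. The deposited values are log2 signals, and the submitters' processing notes name oligo as the authors' tool. Its version, the background correction and the normalization were not given in the sources used here. Values ran from 1.40 to 14.36 over 41345 probe sets, with array medians of 5.58 to 5.70, and were used as deposited. Of these probe sets 23521 had 1 symbol, 1814 several and 16010 none in the array annotation, and 23328 of the first were matched by gene number to RefSeq names (GRCm38.p6). The 22180 genes so named included 1082 with several probe sets, for which the one with the highest mean was used. No filter on dim genes was applied.

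All arrays entered 1 limma 3.58.1 fit (lmFit and eBayes, in R 4.3.3) with a mean per group, p values were adjusted by Benjamini-Hochberg over all 22180 genes within each comparison, and 0.05 was the threshold. Errors of differences are standard errors of this fit. The p values test each difference against a spread between mice estimated over all groups together and moderated by eBayes. The 3 mice per group limit the precision. The code was tested on simulated data. All 10 members and all other carboxylesterase genes were to be named, with the 3 most similar genes for up to 5 members, examples from each list, Ahnak and Xist. The members, lists and rules were chosen with earlier results of these data known. Ahnak differed by -0.04 ± 0.14 (SE, log2) between KO and WT on chow and by -0.48 ± 0.14 on the HFD (limma adjusted p = 0.0483; kept in 3 of 12 fits with 1 array left out); as the deleted part is unknown here, this was not used to check the labels. Promoter windows and gene order came from RefSeq. Alternatives were a replicate block, trend and robust eBayes, array weights, quantile normalization and median centring. Further ones used genes above the median signal only, averaged probe sets, all probe sets separately, just the compared arrays, a minimum change of 2-fold, or 1 array fewer.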

Additional observations from a re-analysis of the deposited data

Results flagged for a closer look

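For 5 of the 9 measured members and 3 of the 10 other carboxylesterase genes the KO minus WT difference itself differed between the diets, by the interaction term of the limma fit over all 12 arrays. Over all genes this term was called for 3.53%. The term (HFD minus chow, log2, with its SE) was -1.28 ± 0.20 for Ces2e (adjusted p = 0.00597) and 1.37 ± 0.17 for Ces4a (adjusted p = 0.00133), which passed in all 12 fits with 1 array left out. It was -2.74 ± 0.66 for Ces1g (adjusted p = 0.0413), -0.77 ± 0.18 for Ces1e (adjusted p = 0.0378) and -0.63 ± 0.14 for Ces1d (adjusted p = 0.0294), which passed in only 2, 2 and 3 of those 12 fits. Among the other genes it was -1.45 ± 0.20 for Ces2g (adjusted p = 0.00224), -0.94 ± 0.22 for Ces1b (adjusted p = 0.0361) and 0.82 ± 0.12 for Ces3b (adjusted p = 0.00376). The Ces1b call was kept in 2 of 12 fits with 1 array left out, with an adjusted p of up to 0.0905, and the calls of Ces2g and Ces3b were kept in all 12.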

How the results depend on the processing

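No called difference of a carboxylesterase changed sign under any alternative. The number of members called between KO and WT stayed at 0 on chow under every alternative and lay between 4 (change of at least 2-fold) and 7 on the HFD, against 6. For HFD against chow it was 1 in WT with a change of at least 2-fold (2 as reported), and in KO 2 with a change of at least 2-fold and 2 with only the arrays compared (4 as reported). Counts also rose, in WT to 3 with only the arrays compared or without KO chow 1 (Ces1g added), and in KO to 5 with trend and robust settings (Ces3a added) or without KO HFD 1 (Ces1f added). For the interaction term, 5 as reported, it was 2 with every probe set, 3 with a change of at least 2-fold, and 2 to 4 with 1 array left out. Differences that were not called and changed sign were those of Ces1g between KO and WT on chow, at -0.56 to 0.47 with 1 array left out, and, for HFD against chow in WT, Ces1e at -0.072 to 0.076, Ces3a at -0.038 to 0.012 and Ces4a at -0.11 to 0.045. The interaction term of Ces2a was -0.034 with array weights and -0.12 to 0.14 with 1 array left out. The cause was not tested.

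No sign was seen that replicate numbers pair the mice: deviations of same-numbered arrays correlated at -0.06 to 0.08 over 18 pairs, and 10 of 36 array and group pairs correlated best with their own number. With 3 arrays in each group this cannot show that there was no pairing. With the replicate number as a block, 4 members had a called interaction term, Ces1d (adjusted p = 0.0553) and Ces1b (0.0616) losing theirs, and the counts of members called in the other comparisons were 0, 6, 2 and 4. The Ces1g term was lost with trend and robust settings (adjusted p = 0.0919) and with array weights (0.0581), and the Ces1e term with quantile normalization (0.0581). The fit without the WT HFD arrays was chosen after seeing the data. Apart from the 2-fold setting, genes called numbered 0 to 19 for KO against WT on chow, 1506 to 2915 for KO against WT on the HFD, 815 to 2213 (WT) and 21 to 124 (KO) for the diets, and 432 to 1394 for the interaction term, against 2, 2331, 1543, 54 and 783. With 3 mice per group, small differences cannot be told from none.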
